A study of Mus musculus with 12 samples.

Results

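The genes described here encode caspases, the scaffold of the apoptosome, and a pair of proteins that restrain or release caspases: Casp2, Casp6, Casp8, Casp9, Apaf1, Xiap and Diablo. They are 7 of the 38887 genes in the deposited table. They were picked by symbol from that table, with their values in all 12 libraries and earlier results of these libraries known, and no cut-off on a value set who was in or out. Their levels and differences are therefore a description, and the adjusted p-values below say where a gene lies in a fit of the whole table and are no independent support. Other members of the same pathways are given from lists beside them.

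RNA was measured in retinal ganglion cells, the neurons whose axons form the optic nerve, in a study of genes that regulate axon regeneration. Opn4 cells were tdTomato-positive cells of Opn4CreERT/+;R26-tdTomatof/f mice, in which a tamoxifen-dependent Cre expressed from the melanopsin gene switches on the red reporter (intrinsically photosensitive cells). HB9 cells were GFP-positive cells of HB9:GFP mice, in which the HB9 promoter drives the reporter (ON-OFF direction-selective cells). Mice of both lines were injected with tamoxifen at 0.124 mg per g on 5 days from postnatal day 21. They had optic nerve crush or sham surgery at postnatal day 42, and cells were taken 3 days later. The 4 groups (Opn4 sham, Opn4 crush, HB9 sham, HB9 crush) held 3 libraries each. A library was 30 single cells picked by hand under fluorescence, 10 from each of several animals, and its polyA RNA was pre-amplified. Cre and the red reporter belong to the Opn4 line alone, so cell class and mouse line cannot be told apart. Values are RPKM, reads scaled to the length of the gene and to the total of the library, on the mouse build mm10.

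Caspases are proteases that are made as inactive precursors and switched on by cleavage or by being brought together. In the mitochondrial route, cytochrome c released from mitochondria binds Apaf1, Apaf1 assembles into the apoptosome, and the apoptosome recruits and activates Casp9, which then cleaves the executioner caspases. Casp8 is the initiator used by death receptors, Casp2 is recruited to its own platform, and Casp6 is an executioner that cuts lamins and other proteins. Xiap binds and blocks Casp9 and some executioner caspases, though not Casp6. Diablo, also called Smac, leaves the mitochondria to displace Xiap. Many retinal ganglion cells die in the weeks after their axons are crushed. Transcript levels do not measure how much of a caspase is active.

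The promoters of Casp6, Casp9 and Apaf1 are shown because these were the genes whose HB9 libraries after crush all lay above those after sham (values below). Over all tested genes, HB9 sham and crush libraries did not overlap, in either direction, for 31.5%. The promoters are RefSeq sequences on GRCm38.p6, from 250 bases before to 50 after the start site, on the strand of the gene. Casp6 lies at chr3:129901165-129901464 on the plus strand, Casp9 at chr4:141793362-141793661 on the plus strand and Apaf1 at chr10:91082694-91082993 on the minus strand. Capitals mark the GC box, GGGCGG on either strand, a sequence bound by Sp1-family factors.
Casp6: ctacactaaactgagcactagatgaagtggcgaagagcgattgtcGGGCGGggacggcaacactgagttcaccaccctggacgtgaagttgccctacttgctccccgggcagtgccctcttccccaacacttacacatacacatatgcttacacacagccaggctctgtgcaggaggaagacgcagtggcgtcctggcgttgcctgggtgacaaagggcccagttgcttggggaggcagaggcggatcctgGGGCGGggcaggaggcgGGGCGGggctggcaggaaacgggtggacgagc
Casp9: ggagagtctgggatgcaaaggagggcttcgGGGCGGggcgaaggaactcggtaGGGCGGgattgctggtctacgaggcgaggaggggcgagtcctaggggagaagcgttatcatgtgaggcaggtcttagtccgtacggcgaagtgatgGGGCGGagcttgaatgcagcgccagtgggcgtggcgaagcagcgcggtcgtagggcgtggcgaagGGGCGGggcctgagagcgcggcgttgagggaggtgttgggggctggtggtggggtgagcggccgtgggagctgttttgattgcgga
Apaf1: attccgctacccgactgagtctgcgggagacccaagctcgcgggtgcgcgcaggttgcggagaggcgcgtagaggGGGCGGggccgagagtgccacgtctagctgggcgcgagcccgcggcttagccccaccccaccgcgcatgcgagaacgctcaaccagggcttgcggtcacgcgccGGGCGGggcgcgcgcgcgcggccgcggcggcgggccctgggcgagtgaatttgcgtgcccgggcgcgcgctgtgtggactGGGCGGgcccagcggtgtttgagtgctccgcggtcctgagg
The 3 sequences held 3, 4 and 3 GC boxes, and their GC content was 62.0%, 66.0% and 74.7%. The 7 genes have 9 promoters in the RefSeq table, 3 of them of Xiap. A GC box stood in 7 of these 9 promoters (77.8%) and in 35.7% of the 32851 mouse promoters of the same length. The other motifs searched on both strands were AP-1 (TGANTCA, in 7.81% of all promoters), CRE (TGACGTCA, 1.79%), a C/EBP-ATF composite (TGATGNAA, 3.97%) and E2F (TTTNGCGC, 1.38%), and 0 of the 9 promoters held any of these 4. A CCAAT box (CCAAT) was found in 3 of the 9 (33.3%) and in 37.4% of all promoters. A TATA box (TATAAA) was found in 1 of the 9 (11.1%), at base -249 on the antisense strand of 1 Xiap promoter, and in 13.6% of all promoters. The motifs differ in their letters, and none contains another.

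The libraries had been scaled to between 15104446 and 28195798 reads, and between 15021 and 16514 genes reached an RPKM of 1 in each. The class labels matched the marker sums. The 6 Opn4-class genes summed to 2295 to 3768 RPKM in Opn4 libraries and to 41.5 to 349 in HB9 libraries. The 6 HB9-class genes summed to 117 to 183 RPKM in Opn4 libraries and to 1475 to 6522 in HB9 libraries, where Cartpt made up 1364 to 6395. From HB9 sham to HB9 crush mean Mnx1 went from 32.2 to 2.38 RPKM, and Adcyap1 of the Opn4-class list from 42.1 to 292. Of the HB9-class genes 5 of 6 were called lower in Opn4 cells after sham and 3 of 6 after crush. Of all tested genes 11.8% and 12.7% were called between classes. The 6 Opn4-class genes were all called higher in Opn4 cells after either surgery. All 10 ganglion cell markers were read in every group, but Pou4f3 reached at most 0.028 RPKM in Opn4 libraries. The sum was 8500 to 9540 RPKM in HB9 sham against 5141 to 5818 in HB9 crush, and 5047 to 5455 against 4164 to 4791 in Opn4 cells. Of the HB9 sums Nefl made up 3338 to 3793 after sham and 2050 to 2354 after crush. From HB9 sham to HB9 crush mean Slc17a6 went from 862 to 870 RPKM and Pou4f3 from 20.1 to 28.3. The means of the other listed markers were lower after crush in HB9 cells. Transcripts of other cells differed between groups too. The 15 rod genes summed to 796 to 2113 RPKM in Opn4 sham, 1166 to 3390 in Opn4 crush, 308 to 1018 in HB9 sham and 619 to 1017 in HB9 crush. The 9 Muller glia and astrocyte genes summed to 253 to 334, 598 to 801, 214 to 268 and 758 to 2062 RPKM in the same order, of which Clu made up 705 to 1987 in HB9 crush. In HB9 cells 2 of the 5 tested genes of that list rose after crush, with a median log2 difference of 2.48, and in Opn4 cells 0 of 5 were called (median 0.56). Of all tested genes 6.42% were called after crush in HB9 cells and 1.11% in Opn4 cells. From HB9 sham to HB9 crush the mean level went from 1.48 to 26.6 RPKM for Vim, from 2.89 to 21.5 for Rlbp1, from 11.4 to 17.0 for Glul and from 1.78 to 4.73 for Apoe. Aqp4 and Sox9 were at 0 in all HB9 libraries of both surgeries, and Gfap and Slc1a3 were at most 0.294 RPKM there. The 10 microglia genes summed to at most 14.8 RPKM in any library, and C1qb and C1qc were at 0 in all 12. The part of these transcripts in the results below was not tested.

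The most abundant of the 7 transcripts was Diablo, with a median of 39.7 RPKM over the 12 libraries (range 22.4 to 63.1). Casp9 followed at 17.2 (2.41 to 33.5), then Xiap at 5.14 (2.97 to 11.5), Casp2 at 2.29 (0.0762 to 10.4), Apaf1 at 1.19 (0.0183 to 3.74) and Casp6 at 0.265 (0 to 7.35). Casp8 had a median of 0 and reached 0.374. The ranges of each pair of neighbours in this order overlapped. RPKM is a level per gene length, and reads recovered from it (with the authors' gene lengths) numbered 63873 for Diablo and 22780 for Casp9 over all libraries, against 4125 for Apaf1, 670 for Casp6 and 25 for Casp8. Differences of the low genes therefore rest on few reads from few cells. In such pools, fewer cells holding a transcript and less of it per cell cannot be told apart. The plot of RPKM by library shows the 7 genes.

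**Figure D1:**
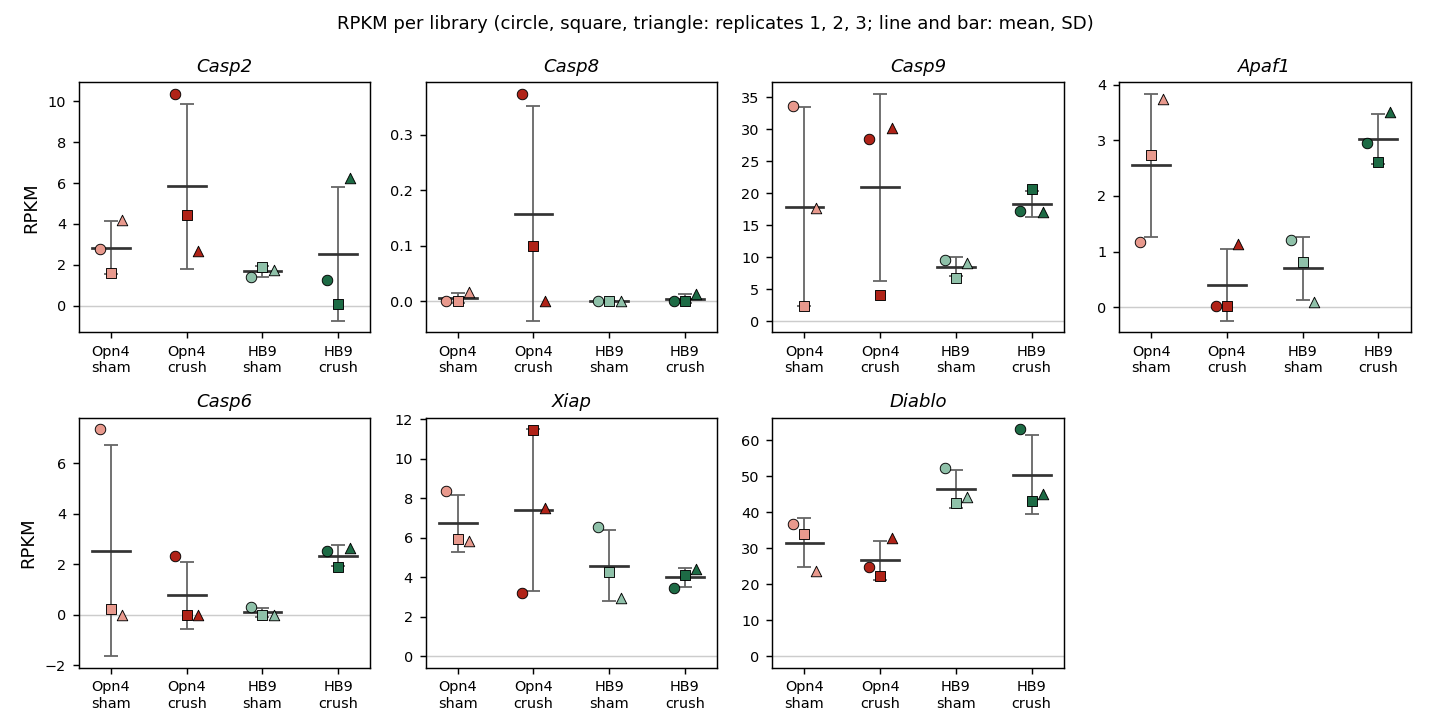
RPKM (vertical axis, linear, its own scale in each panel) of the 7 genes in the 12 libraries. Each point is 1 library, with the mean as a line and the SD as a bar (n = 3). Casp9 and Apaf1 are higher in all HB9 crush than in all HB9 sham libraries, Diablo is lower in all Opn4 than in all HB9 libraries, and Casp8 stays below 0.4 RPKM. Over all tested genes, HB9 sham and crush do not overlap for 31.5%, and the classes do not overlap for 30.7% after sham and 30.4% after crush.

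Casp9 (ENSMUSG00000028914, chromosome 4, 141793612 to 141815976, plus strand) is the initiator that the apoptosome activates. It was measured at 33.5, 2.41 and 17.7 RPKM in the Opn4 sham libraries and at 28.5, 4.02 and 30.1 after crush. In HB9 cells it was 9.61, 6.78 and 9.004 RPKM after sham and 17.2, 20.6 and 17.1 after crush. The Opn4 libraries ranged from 2.41 to 33.5 RPKM within sham and overlapped between conditions. The HB9 libraries lay close together within each condition and did not overlap between them, as for 31.5% of all tested genes. The mean in HB9 cells was 8.46 ± 1.49 RPKM (SD, n = 3) after sham and 18.3 ± 1.98 after crush. The log2 difference in HB9 cells was 1.04 ± 0.79 (SE, adjusted p = 0.560) in the fit of 12 libraries, which shares 1 estimate of spread over the 4 groups. With the 6 HB9 libraries alone the adjusted p was 0.043, in a fit that called 10.6% of all genes. In Opn4 cells the difference was 0.36 ± 0.79 (adjusted p = 0.882), and it was -0.61 without Opn4 sham 2. The end of Casp9 shares 1015 bases with the antisense genes Ctrc and Cela2a, and the reads counted for each of them came to between 0.792% and 5.26% of those of Casp9.

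Apaf1 (ENSMUSG00000019979, chromosome 10, 90989311 to 91082770, minus strand) is the scaffold of the apoptosome. In Opn4 cells it was 1.18, 2.73 and 3.74 RPKM after sham and 0.0256, 0.0183 and 1.14 after crush. In HB9 cells it was 1.20, 0.809 and 0.0836 RPKM after sham and 2.96, 2.60 and 3.50 after crush. All Opn4 crush libraries lay below all Opn4 sham libraries, and all HB9 crush libraries above all HB9 sham libraries. Of the 7 genes, Apaf1 alone had sham and crush groups that did not overlap in either class. Over all tested genes, groups did not overlap for 14.7% in Opn4 cells and for 31.5% in HB9 cells. The share without overlap in both classes was not counted. Behind these values were 244, 372 and 726 reads in Opn4 sham but 4, 3 and 217 in Opn4 crush, and 244, 180 and 15 in HB9 sham but 621, 662 and 837 in HB9 crush. The mean was 2.55 ± 1.29 RPKM in Opn4 sham and 0.393 ± 0.643 in Opn4 crush (SD, n = 3), and 0.699 ± 0.568 in HB9 sham and 3.02 ± 0.454 in HB9 crush.

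The log2 difference of Apaf1 after crush was -1.37 ± 0.47 in Opn4 cells (SE, adjusted p = 0.205) and 1.30 ± 0.47 in HB9 cells (adjusted p = 0.139), so neither passed the threshold of 0.05. The difference between these effects was -2.67 ± 0.67 (Opn4 minus HB9, 95% interval -4.11 to -1.22), with an unadjusted p of 0.00157 and an adjusted p of 0.0961 in the limma fit of 18269 genes. It missed the threshold in each of 22 alternatives, with adjusted p-values from 0.0649 to 0.223. Opn4 cells held less Apaf1 than HB9 cells after crush, a difference of -1.62 ± 0.47 (adjusted p = 0.0404). That call ended in 15 of 23 alternatives. Those were without Opn4 crush 1 (adjusted p = 0.110) or 2 (0.105), without HB9 crush 1 (0.102), 2 (0.0809) or 3 (0.118), without HB9 sham 1 (0.0503) or 2 (0.0599), and in 8 other settings (adjusted p from 0.0241 to 0.271 over all 23). After sham the classes stood the other way, at 1.05 ± 0.47 (adjusted p = 0.189).

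Casp2 (ENSMUSG00000029863, chromosome 6, 42264985 to 42282508, plus strand) is an initiator that responds to DNA damage and metabolic stress. It was 2.76, 1.60 and 4.17 RPKM in Opn4 sham, 10.4, 4.44 and 2.68 in Opn4 crush, 1.39, 1.89 and 1.72 in HB9 sham and 1.24, 0.0762 and 6.24 in HB9 crush. The HB9 sham libraries lay close together, while the HB9 crush libraries held both the lowest value of the 12 and a value above all HB9 sham libraries. Mean levels were 2.84 ± 1.29 and 5.83 ± 4.04 RPKM in Opn4 sham and crush, and 1.67 ± 0.256 and 2.52 ± 3.27 in HB9 sham and crush (SD, n = 3). Log2 differences after crush were 0.72 ± 0.65 in Opn4 cells (adjusted p = 0.656) and -0.04 ± 0.65 in HB9 cells (adjusted p = 0.992). Sham and crush libraries overlapped in both classes.

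Casp8 (ENSMUSG00000026029, chromosome 1, 58795374 to 58847503, plus strand), the death receptor initiator, was close to absent from the libraries. It was at 0, 0 and 0.0167 RPKM in Opn4 sham and at 0.374, 0.0994 and 0 in Opn4 crush, and at 0 in all HB9 libraries but HB9 crush 3, with 0.0136. Over all 12 libraries 25 reads were recovered, 18 of them in Opn4 crush 1. A count of 0 allows up to 3 reads, which is 0.0383 to 0.0715 RPKM depending on the library (counting error only). Casp8 missed the filter of 1 RPKM in 3 libraries and was the gene of the 7 that was not tested. Of the 9 Muller glia and astrocyte genes, Opn4 crush 1 also had the highest Slc1a3 (14.7 RPKM), Aqp4 (6.28), Apoe (73.0), Rlbp1 (86.6), Glul (49.1) and Sox9 (1.54). Vim (33.8) and Clu (536) were higher in Opn4 crush 3 (45.3 and 682), and Gfap was at 0. The same library had the highest rod sum and the lowest microglia sum (0.922 RPKM). Where its Casp8 reads came from was not tested.

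Casp6 (ENSMUSG00000027997, chromosome 3, 129901425 to 129914103, plus strand) is an executioner caspase. It was 7.35, 0.237 and 0 RPKM in Opn4 sham, 2.31, 0 and 0 in Opn4 crush, 0.292, 0 and 0 in HB9 sham and 2.51, 1.88 and 2.64 in HB9 crush. Detection was sporadic in 3 of the groups and even in HB9 crush: the HB9 crush libraries held 98, 89 and 117 reads, and the HB9 sham libraries 11, 0 and 0. Mean levels were 0.0975 ± 0.169 RPKM in HB9 sham and 2.35 ± 0.405 in HB9 crush (SD, n = 3). These groups did not overlap, as for 31.5% of all tested genes. The log2 difference was 1.61 ± 0.72 (95% interval 0.06 to 3.17, adjusted p = 0.245). Casp6 reached 1 RPKM in 5 libraries, of which 3 were HB9 crush, so it passed the filter of 3 libraries through the group where it was high, and nothing is read from its p-values there. In Opn4 cells the difference was -0.55 ± 0.72 (adjusted p = 0.772), but 0.42 without Opn4 sham 1, which held 282 reads where the other Opn4 sham libraries held 6 and 0. The length behind the deposited Casp6 values was 1676 bases, against 5584 exon bases in GENCODE M21. That length bears on its level. Through the filter and the pseudocount of 1 it also bears on whether Casp6 was tested and on its differences.

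Xiap (ENSMUSG00000025860, chromosome X, 42059679 to 42109656, plus strand), an inhibitor of Casp9 and of some executioner caspases, was detected in every library. It was 8.39, 5.93 and 5.87 RPKM in Opn4 sham, 3.23, 11.5 and 7.52 in Opn4 crush, 6.55, 4.27 and 2.97 in HB9 sham and 3.45, 4.14 and 4.41 in HB9 crush. Groups overlapped in all 4 comparisons between them. The difference after crush was 0.00 (95% interval -0.99 to 1.00) in Opn4 cells and -0.12 (-1.11 to 0.88) in HB9 cells on the log2 scale. These intervals still allow a change of about 1 log2 unit in either direction.

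Diablo (ENSMUSG00000029433, chromosome 5, 123509765 to 123524176, minus strand), the mitochondrial protein that displaces Xiap, had the narrowest range of the 7 transcripts relative to its level. It was 36.8, 34.02 and 23.8 RPKM in Opn4 sham, 24.9, 22.4 and 32.8 in Opn4 crush, 52.4, 42.5 and 44.2 in HB9 sham and 63.1, 43.1 and 45.2 in HB9 crush. Every Opn4 library lay below every HB9 library of the same surgery, while sham and crush overlapped within each class. Over all tested genes, the classes did not overlap for 30.7% after sham and 30.4% after crush. The mean of Diablo was 31.5 ± 6.83 and 26.7 ± 5.44 RPKM in Opn4 sham and crush, and 46.4 ± 5.28 and 50.4 ± 10.98 in HB9 sham and crush (SD, n = 3). The difference between classes (Opn4 minus HB9) was -0.56 ± 0.25 after sham (adjusted p = 0.191) and -0.89 ± 0.25 after crush (adjusted p = 0.0354). The call after crush ended in 10 of 23 alternatives, among them without Opn4 crush 1 (adjusted p = 0.0793) or 2 (0.0914), without HB9 sham 2 (0.0533) and without HB9 crush 1 (0.151), 2 (0.0559) or 3 (0.0718), with adjusted p from 0.0283 to 0.151 over all 23. Differences after crush were -0.23 ± 0.25 in Opn4 cells (adjusted p = 0.722) and 0.10 ± 0.25 in HB9 cells (adjusted p = 0.887). Reads were counted without a stated strand setting, and Diablo overlaps the antisense genes Gm15751 and B3gnt4, whose counted reads were 8.63% to 11.01% and 1.04% to 11.6% of its own.

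Counted over the 6 genes that were tested, crush called 0 of 6 in Opn4 cells, where 1.11% of all tested genes were called, and 0 of 6 in HB9 cells, where 6.42% were. The mean crush effect of both classes called 0 of 6 (6.98% of all genes), the difference of the crush effect between classes 0 of 6 (0.816%) and the class difference after sham 0 of 6 (11.8%). The class difference after crush called 2 of 6, Apaf1 and Diablo, both lower in Opn4 cells, against 12.7% of all genes. At an unadjusted p under 0.05 the limma counts were 1, 2, 0, 1, 2 and 2 of 6 in the same order, where 14.3%, 18.9%, 20.6%, 12.9%, 24.7% and 26.5% of all tested genes lay under it. Limma voom on recovered reads called 0, 0, 0, 0, 0 and 2 of 6, against 0.881%, 6.92%, 6.45%, 0.712%, 10.2% and 11.8% of all genes. Libraries of the 2 groups did not overlap for 1 of 6 genes after crush in Opn4 cells (14.7% of all genes), for 3 of 6 in HB9 cells (31.5%), for 1 of 6 between classes after sham (30.7%) and for 2 of 6 between classes after crush (30.4%). The crush effect in each class and the class difference within each surgery share libraries and are not separate evidence. Median log2 differences of the 6 genes were -0.11 in Opn4 cells and 0.57 in HB9 cells after crush, where the medians of all tested genes were -0.02 and 0.11. Between classes the median was 0.49 after sham and -0.55 after crush, against 0.01 and -0.12 over all genes. Nothing is read from these shares, because the genes were chosen with the values in view. Casp6, which passed the filter through HB9 crush, is among the genes counted after crush in HB9 cells by unadjusted p and by lack of overlap.

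**Figure D2:**
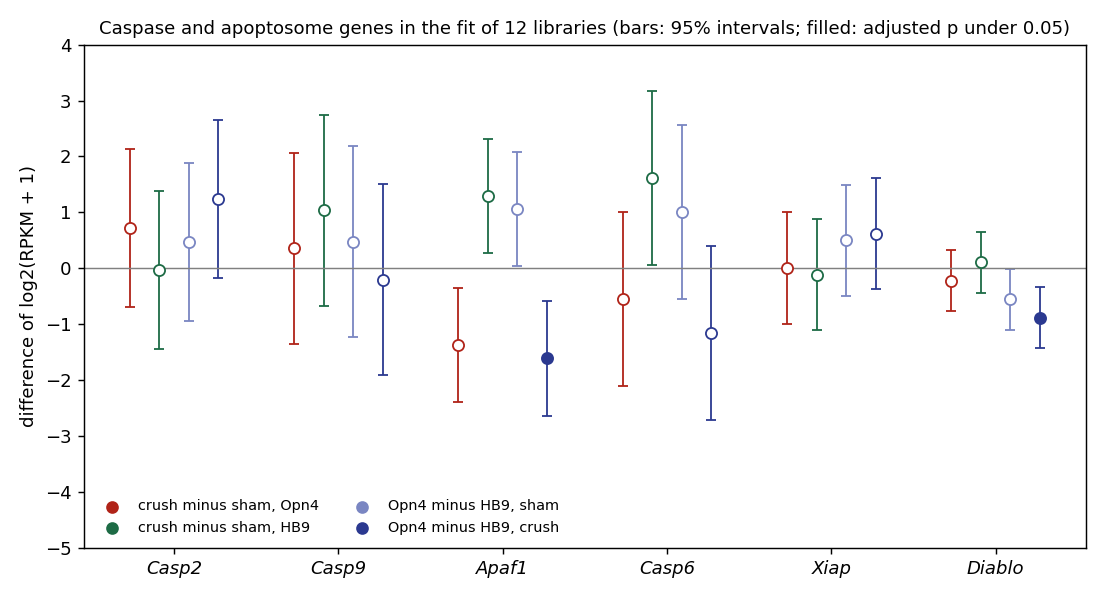
Differences of log2(RPKM + 1) (vertical axis) of the 6 tested genes in 4 comparisons, with 95% intervals from the limma fit of 12 libraries; filled points had an adjusted p under 0.05. Apaf1 is below 0 after crush in Opn4 cells (-1.37) and above 0 in HB9 cells (1.30), and the filled points are Apaf1 and Diablo between classes after crush.

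Other genes of the pathway came from 6 lists of 72 symbols, of which 67 were in the table and 46 were tested. After crush, 1 of 46 rose and 0 fell in Opn4 cells (2.17%), where 1.11% of all tested genes were called, and 5 rose and 1 fell in HB9 cells (13.0%), where 6.42% were. The median log2 difference of the 46 genes was 0.08 in Opn4 cells and -0.09 in HB9 cells. The caspases of the first list, Casp1, Casp4, Casp12 and Casp14, did not reach the filter. Casp4, an inflammatory caspase, exceeded 1 RPKM in 1 library, Opn4 crush 1 (2.04), the library with the most Casp8.

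Upstream of the apoptosome, the BCL-2 family list had 9 tested genes. Of these, 1 rose in Opn4 cells, where 1.11% of all tested genes were called, and 3 rose in HB9 cells, where 6.42% were. Those that rose are BH3-only genes, whose products promote release of cytochrome c. Hrk was 2.22, 0 and 1.20 RPKM in Opn4 sham and 14.7, 7.91 and 7.95 in Opn4 crush, a rise of 2.49 ± 0.49 (adjusted p = 0.0278) that lost its call in 12 of 23 alternatives. In HB9 cells Hrk was 0, 0.0143 and 0 RPKM after sham and 12.3, 15.8 and 9.74 after crush, a rise of 3.74 ± 0.49 (adjusted p = 0.000508). Bbc3, which encodes Puma, rose by 3.35 ± 0.53 in HB9 cells (adjusted p = 0.00189), from 1.62, 0.404 and 1.08 RPKM to 13.0, 16.7 and 31.7. Bcl2l11, which encodes Bim, rose by 2.92 ± 0.55 there (adjusted p = 0.0059), from 0.644, 0.961 and 1.504 RPKM to 15.04, 9.56 and 19.8. A pseudocount of 0.1 ended that call (adjusted p = 0.0661), as did voom (0.0820). In Opn4 cells the differences were 1.965 ± 0.53 for Bbc3 (adjusted p = 0.101) and 1.695 ± 0.55 for Bcl2l11 (adjusted p = 0.178), neither called. The difference of the crush effect between classes was not called for Bbc3 (-1.38, adjusted p = 0.474), Bcl2l11 (-1.23, 0.551) or Hrk (-1.25, 0.486).

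The list of mitochondrial release factors and apoptosome cofactors had 10 tested genes. Of these, 0 were called after crush in Opn4 cells (1 at an unadjusted p under 0.05, against 14.3% of all tested genes). In HB9 cells, where 6.42% of all tested genes were called, 1 was lower. That was Vdac1, a channel of the outer mitochondrial membrane, which fell by 0.74 ± 0.19 (adjusted p = 0.0337). Cycs, the cytochrome c that binds Apaf1, was 85.5, 96.4 and 83.7 RPKM in Opn4 sham, 46.7, 71.2 and 79.3 in Opn4 crush, 217, 198 and 167 in HB9 sham and 127, 156 and 144 in HB9 crush. Opn4 libraries lay below HB9 libraries throughout (the classes did not overlap for 30.7% of all tested genes after sham and 30.4% after crush). The Cycs differences were -1.12 ± 0.20 after sham (adjusted p = 0.00311) and -1.13 ± 0.20 after crush (adjusted p = 0.00325). Both calls ended once the mean rod value entered the fit, with differences of -1.01 and -1.03 (adjusted p = 0.0724 and 0.0576). That fit called 4.59% of all tested genes between classes after sham and 5.10% after crush. Differences of Cycs after crush were -0.46 in Opn4 cells and -0.44 in HB9 cells, and neither was called. Bax, which permeabilizes the outer mitochondrial membrane, differed by 0.06 and 0.28 after crush, also uncalled. It was lower in Opn4 than in HB9 cells after crush, with a difference of -0.85 ± 0.25 (adjusted p = 0.0393), a call lost in 14 of 23 alternatives. Vdac1 was lower in Opn4 than in HB9 cells after sham, with a difference of -0.89 ± 0.19 (adjusted p = 0.00744), which was -0.53 (adjusted p = 0.228) with the rod covariate. In each class comparison 2 of the 10 genes were called lower and 0 higher. Of all tested genes, 11.8% were called after sham and 12.7% after crush. Rod and ganglion cell marker sums also differed between the classes as given above, and their part was not tested.

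Of the other inhibitors of apoptosis and their antagonists, 8 genes were tested and 0 were called after crush in either class (1 at an unadjusted p under 0.05 in each, against 14.3% of all genes in Opn4 and 18.9% in HB9 cells). Birc2, which encodes the inhibitor cIAP1, was 33.96, 40.3 and 19.9 RPKM in Opn4 sham and 5.18, 23.8 and 16.1 in Opn4 crush, a difference of -1.18 ± 0.43 (adjusted p = 0.233). Birc3, which encodes cIAP2, was 6.94, 4.40 and 2.70 RPKM in Opn4 crush and at most 0.352 in HB9 crush. The class difference was 2.15 ± 0.51 (adjusted p = 0.0145). That call was lost with the rod covariate (2.41, adjusted p = 0.0716) and without HB9 crush 2 (2.08, adjusted p = 0.0507). Birc3 reached 1 RPKM in 5 libraries, among them all of Opn4 crush. Birc3 thus passed the filter of 3 libraries through the group where it was high, and nothing is read from its p-values there. Sept4, whose ARTS isoform binds Xiap, was lower in Opn4 cells after sham (-1.90 ± 0.29, adjusted p = 0.00101). After crush Sept4 was also lower there (-1.48 ± 0.29, adjusted p = 0.00554). With the rod covariate that difference was -1.32 (adjusted p = 0.0846). Of the death receptor list, 6 genes were tested and 0 were called in any of the 6 comparisons (1 at an unadjusted p under 0.05 in each class comparison, where 24.7% after sham and 26.5% after crush of all genes were, and 0 in the others). Cflar, the Casp8-like inhibitor of death receptor signalling, differed by 1.07 after crush in Opn4 cells (adjusted p = 0.476) and 0.59 in HB9 cells (adjusted p = 0.708).

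Among 13 caspase substrates and effectors of cell death, 0 were called after crush in Opn4 cells (3 at an unadjusted p under 0.05, against 14.3% of all genes). In HB9 cells, where 6.42% of all tested genes were called, 2 rose. Lmna, which encodes the lamins cut by Casp6, rose by 1.06 ± 0.28 (adjusted p = 0.0384), and Panx1, a channel opened by caspase cleavage, by 1.43 ± 0.37 (adjusted p = 0.036). Panx1 was higher in Opn4 than in HB9 cells after sham by 2.41 ± 0.37 (adjusted p = 0.00099). Cidea, a member of the CIDE family of cell death effectors and lipid droplet proteins, was 27.8, 14.4 and 6.17 RPKM in Opn4 crush and 0, 2.68 and 1.33 in HB9 crush, a difference of 2.85 ± 0.77 (adjusted p = 0.0287) lost in 9 of 23 alternatives. The mean crush effect of both classes called 5 of the 46 genes, all higher: Hrk, Bbc3, Bcl2l11, Cidea and Lmna. Among sham libraries, Hrk reached 1 RPKM only in Opn4 sham 1 and 3, and Cidea only in Opn4 sham 3. Hrk and Cidea thus passed the filter of 3 libraries through the crush libraries, where they were high. Nothing is read from their p-values for the mean crush effect. Of all tested genes 6.98% were called by that effect, 754 higher and 521 lower. Calls in HB9 cells were lost in 11, 10 and 9 of 23 alternatives for Lmna, Panx1 and Vdac1. The plot of the other cell death genes shows the 46 that were tested.

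**Figure D3:**
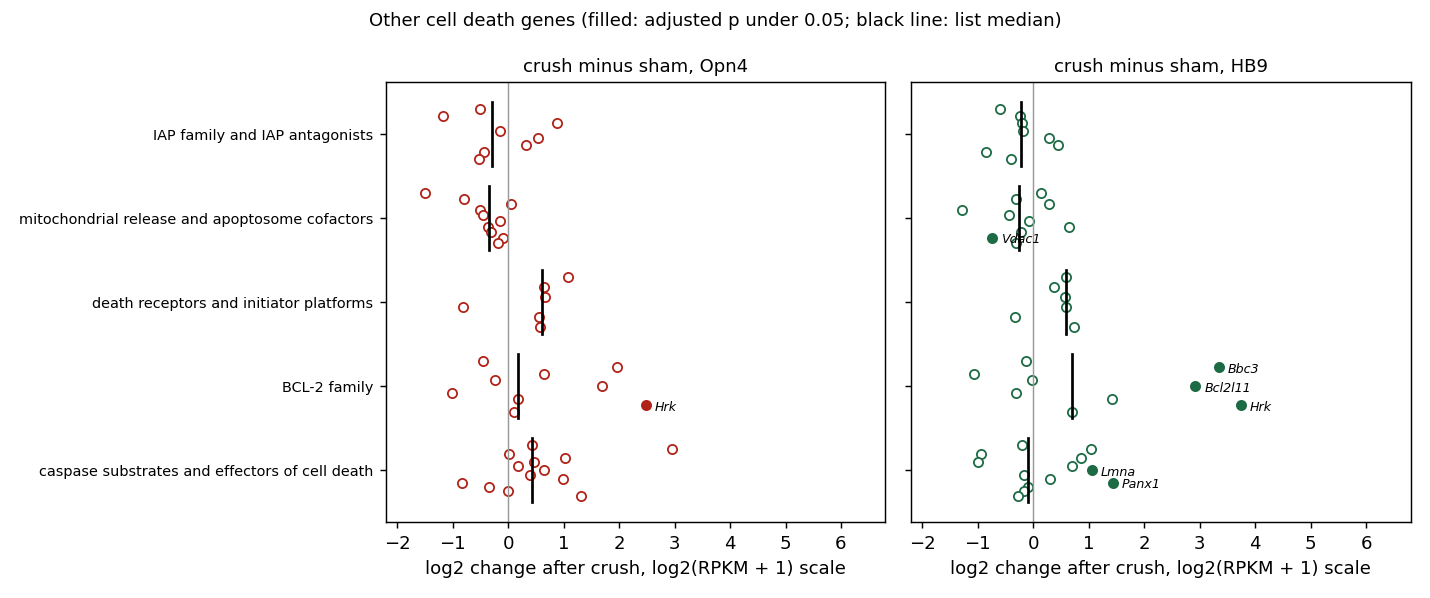
Log2 change after crush (horizontal axis, log2(RPKM + 1) scale) of 46 other cell death genes in 5 lists, in Opn4 cells (left) and HB9 cells (right). Points are genes, filled where the adjusted p was under 0.05, and black lines are list medians; Cidea stands farthest right in Opn4 cells (2.95, not called) and Hrk in HB9 cells (3.74).

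The transcripts most like each of the 7 over the 12 libraries were found by Pearson's r of log2(RPKM + 1), as a description. For Diablo they were Gm15751 (0.970), Gm14295 (0.929) and Mfsd9 (0.927), and for Casp9 they were Ctrc (0.958), Ccdc77 (0.913) and Cela2a (0.908). Gm15751, Ctrc and Cela2a are the antisense genes that share bases with Diablo or Casp9. For Apaf1 they were Zswim7 (0.889), Rbm22 (0.866) and Commd8 (0.861), for Casp2 Ppp4r2 (0.871), Rnf44 (0.862) and 4931440J10Rik (0.855), for Casp6 Gm11398 (0.922), Trim56 (0.885) and Zfp653 (0.885), and for Xiap Gabarapl2 (0.923), Prdm8 (0.906) and Itgal (0.902). Libraries of a group share class and surgery, and 18269 genes were searched, so values of this size carry no test.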

How the data were processed

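The authors deposited 1 RPKM value per gene and library. Per the submitters' processing notes, TopHat2 2.0.11, Bowtie, edgeR 3.14.0 and build mm10 were used; the counting rule, strand setting and annotation are not given in the sources used here. The 7 genes and all lists were chosen with earlier results of these data known. Whole reads and gene lengths were recovered from the steps of low RPKM values; they summed to more than the scaling total (52813700 against 22905890 in Opn4 sham 1) for a reason not given in the sources used here, and they serve for read numbers, floors and 1 alternative. Values were tested as log2(RPKM + 1) for 18269 genes with at least 1 RPKM in at least 3 of 12 libraries, with limma 3.58.1 in R 4.3.3 (4 group means, eBayes with trend, two-sided). P-values were adjusted by Benjamini-Hochberg over all genes tested, for each of 6 comparisons. The pseudocount of 1 damps changes of low genes. All 7 genes were named. Of the lists, genes past an adjusted p of 0.05 were named, at most 5 a list and comparison, plus Cycs, Bax, Birc2 and Cflar; some genes are not reported here. The 3 most alike genes of each were also named. The labels tie each library to pooled animals, but which animals is not given, so p-values measure the spread between pools. The fit was checked on simulated data. The labels do not say whether replicate numbers pair libraries. Deviations of same-numbered libraries from their group means correlated at -0.0217 to 0.081, which does not settle it. The mean rod value (log2) fell from replicate 1 to replicate 3 in every group, for example from 6.06 to 4.52 in Opn4 sham and from 4.76 to 3.05 in HB9 sham.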

Additional observations from a re-analysis of the deposited data

Results flagged for a closer look

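Apaf1 was flagged by a rule on these same values, that its groups not overlap in either class and lie in opposite directions. All 3 Opn4 crush libraries lay below the Opn4 sham libraries and all 3 HB9 crush libraries above the HB9 sham libraries. Sham and crush did not overlap for 14.7% of all tested genes in Opn4 cells and for 31.5% in HB9 cells. The difference between the crush effects on Apaf1 was -2.67 on the log2 scale (Opn4 minus HB9). In Opn4 cells the gap was narrow, from 1.18 RPKM (244 reads) in sham 1 to 1.14 RPKM (217 reads) in crush 3. Opn4 crush 1 and 2 held 4 and 3 reads. The interaction test gave an adjusted p of 0.0961 and did not pass the threshold.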

How the results depend on the processing

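For the class difference after crush, the 2 called genes (Apaf1 and Diablo) became 1 with a pseudocount of 0.1, with no filter beyond an RPKM above 0, with weighted libraries and with the replicate block, and 0 with quantile normalization, upper-quartile scaling, only the groups compared or the mean rod value as a covariate; leaving out 1 library gave 0 to 2. For the crush effect in HB9 cells, weighted libraries called 2 (Casp6 and Apaf1) where 16.6% of all genes were called, and only the groups compared called 2 (Casp6 and Casp9) where 10.6% were, against 0 and 6.42% as designed. Casp6 passed the filter through HB9 crush, the group where it was high, so nothing is read from its calls here. The other member counts stayed at 0 in every alternative that could be fitted, and the replicate block changed no other member count. Between classes after crush, the fit with the rod covariate called 5.10% of all tested genes, against 12.7% as designed. The cause was not tested.

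Quantile normalization moved the median of all genes in HB9 cells after crush from 0.11 to -0.02, and between classes after crush from -0.12 to -0.01. Values near 0 changed sign. Xiap in Opn4 cells after crush was -0.0205 with a pseudocount of 0.1, -0.0411 with quantile normalization, -0.0251 with upper-quartile scaling, -0.0119 with the rod covariate and -0.0238 with voom. In HB9 cells after crush Casp2 was 0.0882 with a pseudocount of 5, and Diablo was -0.0387 with quantile normalization and -0.0315 with upper-quartile scaling. Casp6 between classes after sham was -0.52 with the rod covariate.

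Leaving out 1 library, differences in Opn4 cells after crush ranged from -1.12 to 0.42 (Casp6), -0.61 to 1.22 (Casp9), -0.35 to 0.43 (Xiap) and -0.14 to 0.21 (Bax). In HB9 cells they ranged from -0.78 to 0.60 (Casp2), -0.34 to 0.12 (Xiap) and -0.0647 to 0.205 (Diablo). The difference between the crush effects ranged from -1.64 to 0.19 for Casp9 and -0.23 to 0.55 for Xiap, and Casp9 between classes from -0.23 to 1.44 after sham and -0.66 to 0.66 after crush. Apaf1 kept its sign in both classes under every alternative that could be fitted. Reads limit Casp8 and Casp6 most: at 25 and 670 reads over 12 libraries of 30 cells, a gene at 0 in a library may still have been present.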
